A study of Mus musculus with 12 samples.

Results

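The keratin genes of basal airway cells and of stressed epithelium, Krt5, Krt14, Krt15, Krt17, Krt6a and Krt16, were examined in mouse airway organoids with and without laser-based cell ablation. The 6 genes were chosen by symbol out of 55401 genes listed, and all 6 were among the 13792 genes that reached 10 normalized counts in 6 or more libraries and were tested. Organoids had been grown in basement membrane extract from lung epithelial cells of adult C57BL/6J mice, and the cells of every library, controls included, carried a lentiviral Histone2A-mCherry reporter driven by a p63 promoter. In the ablation group (6 libraries), a femtosecond laser had destroyed 10 neighbouring cells in each of 45 organoids per dish. In the control group (6 libraries), a dish prepared in the same way had not been lasered. All dishes were kept in unsupplemented FluoroBrite medium from 1 h before treatment and were harvested 4.5 h after it. An ablation dish and a control dish shared a pair number (1, 3, 4, 5, 6 or 7), a passage (P2+14 to P2+16) and a culture day, which was day 14 for pairs 1 and 4, day 15 for pair 5, day 18 for pair 6, day 19 for pair 7 and day 20 for pair 3. The titles of controls 4, 6 and 7 contain the word ablation, but their treatment label and the letter in their number give them as controls, and they were used as such. The dishes come from cultured cells whose donor animals are not told apart in the labels, so p-values measure only the spread between these dishes, which may be technical.

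Keratins are the intermediate filament proteins of epithelia. A filament is built from heterodimers of an acidic type I chain and a basic type II chain, so that the genes of both types are used together. Krt5 (type II) and Krt14 (type I) encode the classical pair of basal cells in airway and skin, and Krt15 encodes a further type I chain of basal cells. Krt6a (type II), Krt16 and Krt17 (both type I) are known for their induction in epidermis after wounding and under other stress, and Krt17 and Krt6a are also found in cultured epithelial cells. Whether ablation of a few cells had altered these genes, and whether the culture day mattered, was asked here.

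In the GRCm38 build, the type I members lay on the minus strand of chromosome 11: Krt15 (ENSMUSG00000054146.8, from 100131758 to 100135928), Krt14 (ENSMUSG00000045545.8, from 100203162 to 100207548), Krt16 (ENSMUSG00000053797.10, from 100246091 to 100248902) and Krt17 (ENSMUSG00000035557.9, from 100256217 to 100261029). The type II members lay on the minus strand of chromosome 15, with Krt6a (ENSMUSG00000058354.7) from 101689910 to 101694307 and Krt5 (ENSMUSG00000061527.7) from 101707070 to 101712898. The genes are alike in sequence, which bears on how well short reads can be assigned to them. The stretch of coding exon below was chosen as one where Krt17 shares the most bases with both Krt14 and Krt16. The aligned stretch of Krt15 is shown beside them and played no part in that count. Capitals mark bases that differ from Krt17, and all 75 bases, as long as 1 read of these libraries, lie within 1 exon of each gene (GENCODE transcripts, GRCm38, minus strand).
Krt17, chr11:100257448-100257522: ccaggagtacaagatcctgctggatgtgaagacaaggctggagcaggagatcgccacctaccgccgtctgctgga
Krt14, chr11:100204123-100204197: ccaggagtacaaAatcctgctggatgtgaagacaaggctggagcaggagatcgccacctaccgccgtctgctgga
Krt16, chr11:100246625-100246699: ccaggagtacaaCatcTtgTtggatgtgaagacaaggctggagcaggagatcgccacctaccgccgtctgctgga
Krt15, chr11:100133006-100133080: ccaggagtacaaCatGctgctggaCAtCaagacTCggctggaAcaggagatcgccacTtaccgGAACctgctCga
In this stretch Krt14 differed from Krt17 at 1 base, Krt16 at 3 and Krt15 at 14. Over the aligned coding sequence, Krt14 was 86.5% identical to Krt16 and 84.1% identical to Krt17.

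The closest relative of any member was Krt6b, a type II keratin gene beside Krt6a, with 97.8% identity over the coding sequence. The next pair of sequences is the same coding stretch in both genes and shows where reads can tell them apart, with the 12 differing bases in capitals.
Krt6a, chr15:101692484-101692558: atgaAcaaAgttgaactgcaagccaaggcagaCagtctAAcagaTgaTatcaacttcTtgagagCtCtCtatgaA
Krt6b, chr15:101678303-101678377: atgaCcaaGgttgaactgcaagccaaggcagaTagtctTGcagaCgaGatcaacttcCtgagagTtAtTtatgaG
Of all 75-base windows of the transcripts, 42.3% of those of Krt6a were found word for word in another gene, and 36.2% in Krt6b. For Krt16 the share was 28.9%, of which most (22.5% of all windows) matched the pseudogene Gm11597 and 6.44% matched Krt14. Krt14 shared 5.91% of its windows and Krt5 5.18%, while Krt15 and Krt17 shared 0%. The values of Krt6a and Krt16 can therefore depend on how such reads were assigned, to a larger degree than those of the other members. Krt6b itself had between 3689 and 8410 normalized counts, and Gm11597 had at most 2.01.

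Libraries held between 27297950 and 28504390 normalized counts in all, and the 9 libraries for which reads recovered from the deposited values were used held 23631212 to 29775699 assigned reads. The labelled tissue was checked by its markers. The epithelial genes Epcam (11401 to 13854 normalized counts) and Cdh1, and the basal gene Trp63 (6443 to 11436), were abundant in every library. The secretory marker Scgb1a1 (0 to 9.65), the multiciliated marker Foxj1 (2.92 to 18.1) and the fibroblast gene Col1a2 (at most 1 normalized count) were at or near 0, although the secretory enzyme gene Cyp2f2 reached 26191 to 78597. The multiciliated markers also included Dnah5 (0.988 to 6.76) and Tubb4b, which had 10168 to 15295. The hillock markers Krt4 (5425 to 16173) and Krt13 (20843 to 45420) were abundant in every library. Of 5 markers of cornifying epidermis, Krt1 and Flg did not exceed 6.82 normalized counts, while Lor had 59.4 to 161, Krt10 had 186 to 249.7 and Ivl had 395 to 953.

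The 6 genes made up 2.22% to 2.82% of the normalized counts of a library after ablation and 2.27% to 2.74% in the control. They held 72.4% to 79.3% of the counts of the 55 keratin genes listed (the pseudogene Krt8-ps included). Levels of different genes were compared as normalized counts per kilobase of exon. On this scale Krt14 had a mean level of 134092 ± 11311 in unlasered dishes (SD, n = 6) and 138742 ± 14138 in lasered dishes, and its mean over the 12 libraries ranked 1 among all genes tested. Krt5 followed with a level of 125038 ± 16003 in unlasered and 126995 ± 19199 in lasered dishes, which gave rank 2. The ranges of Krt14 and Krt5 overlapped, so their order was not larger than the spread between libraries.

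Krt17 ranked 9 with a mean level of 60214 ± 7055 per kilobase in unlasered and 52965 ± 9360 in lasered dishes. Krt6a ranked 16, at 35895 ± 3176 and 32305 ± 5040 per kilobase in the same order. These ranks, like those of Krt14 and Krt5, were taken over all 12 libraries. Levels of Krt15 spanned 1958 to 7014 per kilobase in unlasered and 1827 to 8601 in lasered dishes (rank 265), and those of Krt16 spanned 2319 to 6637 and 2167 to 6481 (rank 293). The lowest library of Krt5 (104241) lay above the highest of Krt17 (69052), the lowest of Krt17 (41968) above the highest of Krt6a (40869), and the lowest of Krt6a (24823) above the highest of Krt15 (8601). Krt15 and Krt16 overlapped. The gap between Krt17 and Krt6a was small and rests on the length used for Krt6a. This was 2418 exon bases, while its coding transcript has 2278 bases. A shorter length gives a higher level, so the absence of overlap depends on this choice. How the shared windows of Krt6a bear on its level was not tested.

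**Figure D1:**
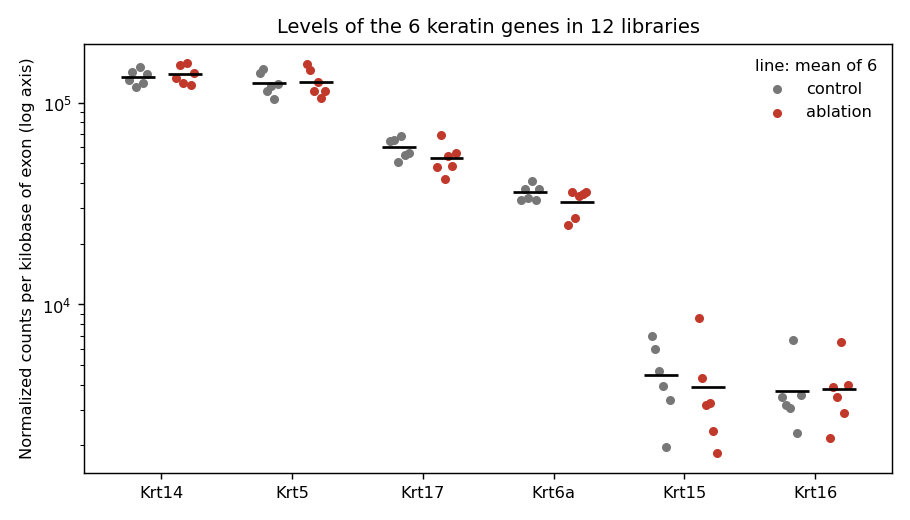
Normalized counts per kilobase of exon (vertical log axis) for the 6 keratin genes, with 1 point per library, 6 control libraries in grey, 6 ablation libraries in red, and a line at each mean. Krt14 and Krt5 overlap at the top, Krt17 and Krt6a lie below them, and Krt15 and Krt16 share the lowest level. Krt17 and Krt6a are separated by a small gap that depends on the exon length used.

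The genes differed in how much they varied between control dishes. The SD of the log2 level over the 6 controls was 0.122 for Krt14, 0.126 for Krt6a, 0.171 for Krt17 and 0.184 for Krt5, close to the median of 0.157 over all genes tested. It was 0.657 for Krt15 and 0.502 for Krt16, which exceeded the SD of 96.8% and 92.2% of all genes tested, respectively. Differences between groups can therefore be resolved more finely for the first 4 genes than for Krt15 and Krt16.

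Ablation and control dishes were then compared. None of the 6 genes passed the test. In the limma model with the library set as covariate, 0 of 6 members had an adjusted p under 0.05 and 1 had an unadjusted p under 0.05 (Krt17). Over all genes tested, 0% were called in this model (1083 genes, or 7.85%, at an unadjusted p under 0.05). In the paired limma model, with the pair number as block, 0 of 6 members were called, against 1.09% of all genes tested, and 2 (Krt17 and Krt6a) had an unadjusted p under 0.05, as 17.6% of all genes tested did (2433 genes). Without trend and robust variance estimation, the paired model called 0 genes. edgeR's quasi-likelihood test on recovered reads called 0 members as well, both over 9 libraries and within the 4 pairs with recovered reads in use for both dishes. In bulk RNA, fewer cells of a type and less RNA per cell cannot be told apart.

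Krt5, the type II basal chain, had a median of 267826 normalized counts in the unlasered dishes (lowest 229016, highest 322785). In the lasered dishes the median was 266008 (lowest 232144, highest 340094). The groups overlapped almost entirely, and the ablation dish was the higher in 4 of 6 pairs. limma gave a log2 fold change of 0.02, with a standard error of 0.068 by library set and 0.041 by pair (adjusted p 0.964 and 0.851). The 95% confidence interval of the log2 fold change in the paired model ran from -0.07 to 0.11.

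Krt14, its type I partner, had a median of 235739 normalized counts without ablation (lowest 210725, highest 262665) and of 240646 with it (lowest 215856, highest 274982). At least 5 higher pairs were seen for 17.9% of all genes tested. Krt14 was higher after ablation in 5 of 6 pairs, by amounts within the spread between dishes. Its log2 fold change of 0.05 had a standard error of 0.063 by library set and 0.037 by pair (adjusted p 0.878 and 0.539). The 95% interval in the paired model was -0.03 to 0.13.

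For Krt15, the third basal chain, the unlasered dishes held 3460 to 12394 normalized counts, with a median of 7596. The lasered dishes held 3229 to 15198, with a median of 5677. The highest value in both groups came from pair 1, and 4 of 6 pairs were lower after ablation. The log2 difference of -0.27 had a standard error of 0.26 by library set and 0.175 by pair (adjusted p 0.824 and 0.480). With a 95% interval from -0.70 to 0.16 in the paired model, a change in either direction could not be resolved at this spread.

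Krt17, the type I chain of stressed epithelium with no shared read windows, was lower after ablation in 5 of 6 pairs. A count of at least 5 lower pairs was met by 18.4% of all genes tested. In pair 1 the lasered dish had 74125 normalized counts and the unlasered dish 100583, and in pair 5 the values were 83956 and 106446. Pair 4 gave 65092 after ablation and 78511 in the control, and pair 6 gave 75340 and 85615. The 2 dishes of pair 7 were close (87278 and 87825), and in pair 3 the ablation dish was the higher (107100 and 101373). The groups overlapped, with medians of 79648 after ablation and 94204 in the control.

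In log2 units Krt17 differed by -0.19, or -12.6%, with a standard error of 0.088, an unadjusted p of 0.0452 and an adjusted p of 0.629 by library set. By pair the unadjusted p was 0.00799 and the adjusted p 0.139, and Krt17 ranked 791 among all genes by p. At an unadjusted p under 0.05, 3.7% of all genes were lower by library set and 8.86% by pair. Within library set 1 (pairs 1, 3 and 5) the log2 difference was -0.23 and within set 2 (pairs 4, 6 and 7) -0.15.

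Krt6a, the type II chain of stressed epithelium, had its lowest differences in the same pairs 1, 4 and 5. Its normalized counts after ablation and in the control were 60021 and 79994 in pair 1, 65206 and 81567 in pair 4, and 83724 and 98821 in pair 5. In pairs 3 and 7 the dishes differed little (87032 and 90481, 87317 and 90255), and in pair 6 the ablation dish was the higher (85381 and 79647). The ablation dishes of pairs 1 and 4 lay below all 6 controls, and the other ablation dishes lay among them. Its log2 difference was -0.16, with a standard error of 0.102 and an adjusted p of 0.723 by library set. By pair the unadjusted p was 0.0191 and the adjusted p 0.191. After quantile normalization the difference was -0.08, with an unadjusted p of 0.423 by library set and 0.153 by pair. Within library set 1 this difference was -0.24 and within set 2 it was -0.09.

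Krt16, the usual type I partner of Krt6a, had a median of 5221 normalized counts in unlasered dishes (lowest 3630, highest 10387). Its median in lasered dishes was 5767 (lowest 3391, highest 10143). Both dishes of pair 5 lay far above the rest. The ablation dish was higher in 4 of 6 pairs. The log2 difference of 0.04 had a standard error of 0.25 by library set and 0.1345 by pair (adjusted p 0.986 and 0.918). The 95% interval in the paired model, from -0.28 to 0.36, left the direction undetermined.

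**Figure D2:**
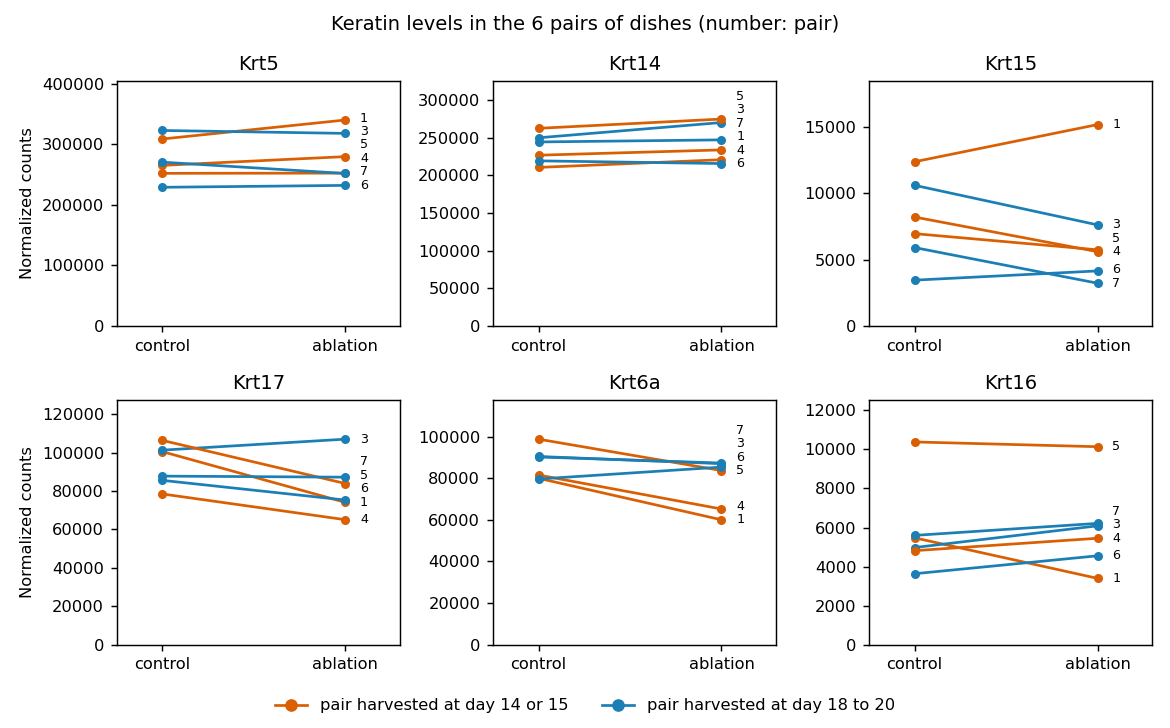
Normalized counts (vertical axes from 0) of each keratin gene in control and ablation dishes, with a line joining the dishes of 1 pair and the pair numbers at the right in the order of the ablation dishes. Pairs harvested at day 14 or 15 are orange and pairs harvested at day 18 to 20 are blue. The orange lines of Krt17 and Krt6a all point down, the blue lines of both genes are flatter, and pair 1 of Krt15 and pair 5 of Krt16 stand above the other pairs.

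**Figure D3:**
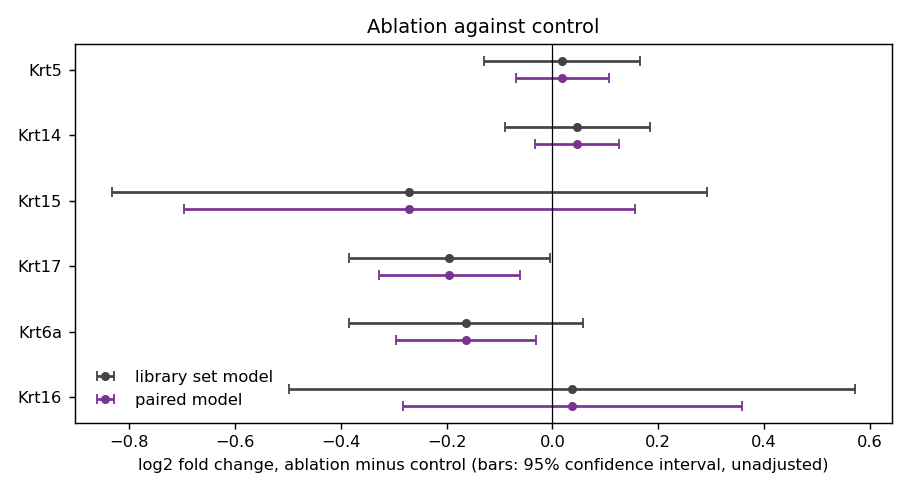
Log2 fold change of ablation against control (horizontal axis) with its unadjusted 95% confidence interval for each gene in the library set model (grey) and the paired model (purple). The intervals of Krt5 and Krt14 are narrow and include 0, those of Krt15 and Krt16 are wide, and none of the 6 genes passed after adjustment over all genes.

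The response to ablation was next compared between culture days. For Krt17 and Krt6a, the log2 differences of the 3 pairs harvested at day 14 or 15 all lay below those of the 3 pairs harvested at day 18 to 20. Such an order was seen for 6.82% of all genes tested, and for 2 of the 6 members. In the early pairs the log2 difference of Krt17 was -0.35 ± 0.085 (SD, n = 3; range -0.44 to -0.27), and in the late pairs it was -0.04 ± 0.134 (range -0.18 to 0.08). Krt6a differed by -0.33 ± 0.088 in the early pairs (range -0.41 to -0.24) and by -0.00 ± 0.088 in the late pairs (range -0.06 to 0.10).

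The difference itself was tested in limma with the interaction of condition and day class beside the pair block. No gene passed (0% of all genes tested, 803 at an unadjusted p under 0.05), and 0 of 6 members passed, 2 of them with an unadjusted p under 0.05. For Krt6a the response was 0.32 higher in late pairs on the log2 scale (standard error 0.080, an unadjusted p of 0.00172 and an adjusted p of 0.747). For Krt17 it was 0.31 higher (standard error 0.087, an unadjusted p of 0.00384 and an adjusted p of 0.778), and this value was 0.17 after quantile normalization. At an unadjusted p under 0.05, 3.84% of all genes had a higher response in late pairs. Krt16 differed by 0.44 (standard error 0.211; adjusted p = 0.904), and this value was 0.18 without pair 1 and 0.62 without pair 4. For Krt5, Krt14 and Krt15 the values were -0.11, -0.02 and -0.18. Late pairs also had, in part, a later passage, so that culture day and passage cannot be fully told apart.

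**Figure D4:**
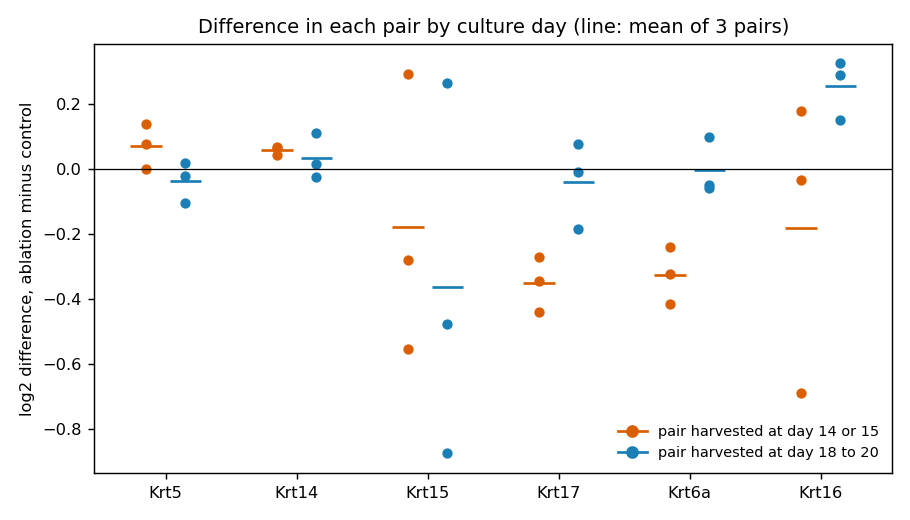
Log2 difference between the ablation and the control dish of each pair (vertical axis) for the 6 genes, with 3 pairs of day 14 or 15 in orange, 3 pairs of day 18 to 20 in blue, and a line at each mean. For Krt17 and Krt6a the orange points lie below the blue points, which was not significant after adjustment, and for Krt5, Krt14, Krt15 and Krt16 the classes overlap.

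Between the library sets, the response differed by more than the threshold for 1 gene (0.00725% of all genes tested), which was no member, and 0 members had an unadjusted p under 0.05 in that limma test. The log2 difference in response, set 2 against set 1, lay between -0.23 (Krt15) and 0.36 (Krt16).

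The levels themselves were compared between late and early culture days in the 6 control dishes. No member passed in limma (adjusted p between 0.784 and 0.929, and 0 members at an unadjusted p under 0.05). Over all genes tested 0% passed (971 at an unadjusted p under 0.05). The largest log2 differences, late against early, were -0.35 for Krt16 and -0.33 for Krt15, with standard errors of 0.296 and 0.353. Leaving out 1 dish moved Krt16 to between -0.60 (without pair 4) and -0.09 (without pair 3), and Krt15 to between -0.86 (without pair 3) and 0.19 (without pair 4). Krt5, Krt14, Krt17 and Krt6a differed by 0.04 to 0.09. In the ablation dishes, the log2 difference was 0.38 for Krt17 (unadjusted p = 0.0123, adjusted p = 0.972) and 0.35 for Krt6a (unadjusted p = 0.0429, adjusted p = 0.972). It was -0.45 for Krt15, 0.08 for Krt14, -0.01 for Krt5 and 0.01 for Krt16. No gene was called in this limma fit, and 5.07% of all genes tested had an unadjusted p under 0.05 (699 genes).

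Levels were also compared between the library sets, which are read from the library numbers, and 0 of 6 members passed (2 at an unadjusted p under 0.05 in the controls). In the controls, the log2 difference, set 2 against set 1, was most negative for Krt15 (-0.70, unadjusted p = 0.0913, adjusted p = 0.381). It was -0.31 for Krt17 (unadjusted p = 0.00352, adjusted p = 0.282) and -0.28 for Krt5 (unadjusted p = 0.0321, adjusted p = 0.307). No gene was called for this difference in limma (0% of all genes tested, 2093 at an unadjusted p under 0.05), and 7.85% of all genes were lower in set 2 at an unadjusted p under 0.05. In the ablation dishes, 3 members had an unadjusted p under 0.05 in limma, as 5.3% of all genes tested did, and no gene was called. These were Krt15 (-0.90), Krt5 (-0.34) and Krt17 (-0.34), each with an adjusted p of 0.8625. The other members lay between -0.21 (Krt14) and -0.07 (Krt6a). How the library set bears on single pairs was not tested.

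Ratios within a library, which do not depend on the scaling of that library, were computed for chains that pair with each other. These are given without a test. The ratio of Krt14 to Krt5, as normalized counts, was 0.735 to 0.991 in the control (median 0.870) and 0.688 to 0.983 after ablation (median 0.903). It was higher in 3 pairs and lower in 3 pairs. Krt17 to Krt6a was 0.963 to 1.26 in the control and 0.882 to 1.24 after ablation, with a mean log2 difference of -0.03 ± 0.148 (SD, n = 6).

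Krt16 to Krt6a was higher after ablation in 5 of 6 pairs, with a mean log2 difference of 0.20 ± 0.261. Krt6b to Krt6a was also higher in 5 of 6 pairs (0.21 ± 0.225), although Krt6b itself was higher in 3 of 6 pairs and differed by 0.04 on the log2 scale (adjusted p = 0.972). Both ratios involve Krt6a, whose windows are shared in large part with Krt6b, and how shared reads were assigned is not given in the sources used here. The sum of the type I members over the sum of the type II members, per kilobase, was 1.18 to 1.42 in the control (median 1.23) and 1.07 to 1.36 after ablation (median 1.27).

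Among the ratios of a stress chain to a basal chain of its own type, Krt17 to Krt14 was lower after ablation in 6 of 6 pairs, a pattern noticed after the values were seen. The control and ablation ratios were 0.443 and 0.317 in pair 1, 0.373 and 0.295 in pair 4, and 0.405 and 0.305 in pair 5. They were 0.405 and 0.396 in pair 3, 0.390 and 0.349 in pair 6, and 0.359 and 0.353 in pair 7. The mean log2 difference was -0.24 ± 0.196 (SD, n = 6), and the early pairs held the 3 largest differences. Krt6a to Krt5 was lower in 4 of 6 pairs (-0.18 ± 0.255), and in pairs 6 and 7 it was higher. How often ratios of other genes go in 1 direction in all pairs was not computed. As single genes, 18.4% of all those tested were lower in at least 5 of 6 pairs.

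**Figure D5:**
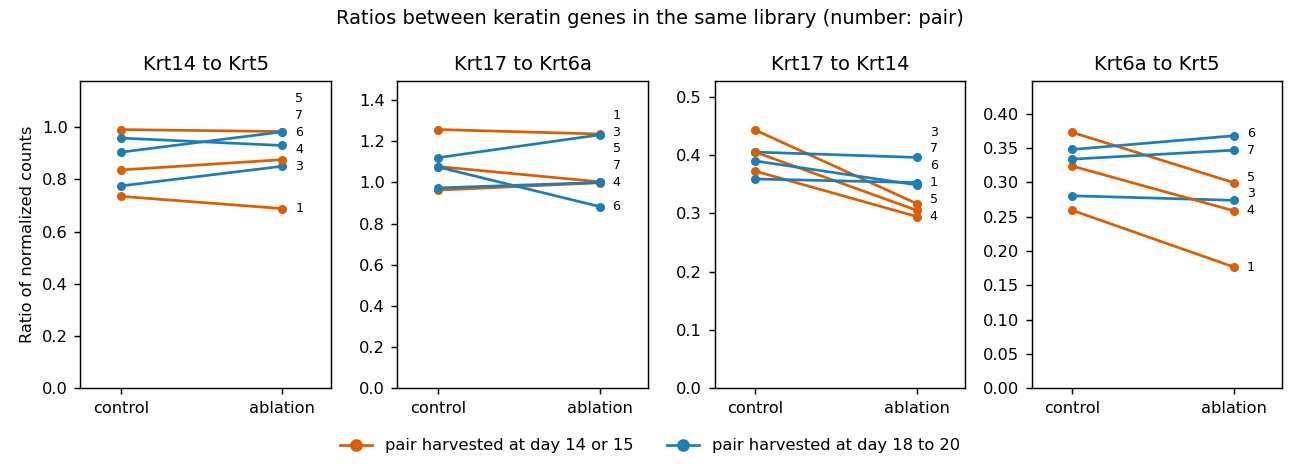
Ratios of normalized counts between keratin genes of the same library (vertical axes from 0) in control and ablation dishes, with a line per pair, pair numbers at the right in the order of the ablation dishes, orange for day 14 or 15 and blue for day 18 to 20. Krt14 to Krt5 and Krt17 to Krt6a go up in some pairs and down in others, and Krt17 to Krt14 is lower after ablation in all 6 pairs.

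Across the 12 libraries, the log2 levels of the members were compared as a description, since libraries of a pair and of a set share cultures or runs. Krt5 varied most like Krt15 (Pearson's r 0.85, Spearman's rho 0.82) and not like Krt6a (r -0.20). Krt17 varied most like Krt6a (r 0.72, rho 0.72), and Krt14 most like Krt16 (r 0.71, rho 0.74). Among all genes tested, those most like Krt5 were Bdh1, Nt5c and Twf2 (r 0.94 to 0.95), and those most like Krt14 were Acot7, Ccdc142os and Ncoa5 (r 0.90 to 0.95). Krt15 was followed most closely by Sytl4, Use1 and Zfp750 (r 0.95 to 0.97). For Krt17 these were Pex14, Top3b and Napa (r 0.91 to 0.92), for Krt6a they were Unc13d, Itgb4 (a hemidesmosome integrin to which keratin filaments are anchored) and Rab11fip5 (r 0.90 to 0.96), and for Krt16 they were Lrrfip1, Shroom3 and Rnf19b (r 0.89 to 0.93).

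The other keratin genes were read beside the members. Of 22 tested, 10 were higher and 12 lower after ablation, with a median log2 fold change of -0.02 against -0.00 over all genes tested, and 0 were called by limma in either model (0 at an unadjusted p under 0.05 by library set and 1 by pair). The shares of all genes tested under that p were 7.85% by library set and 17.6% by pair. Over all genes tested, 51.5% were lower after ablation. Krt19, a type I chain of simple and luminal epithelium, led them in abundance, with 88173 ± 9920 normalized counts in unlasered and 85782 ± 3901 in lasered dishes (SD, n = 6). Krt42 had the largest positive log2 fold change (0.31, at 18.9 ± 7.8 and 16.2 ± 7.7 normalized counts) and Krt36 the largest negative (-0.31), both at low counts. Among 7 further type II genes, Krt7 was the most abundant (log2 fold change -0.05) and Krt78 had the most negative value (-0.28). Krt8, a type II chain of simple and luminal epithelium, had the highest value of these (0.11) and was higher in 6 of 6 pairs (adjusted p = 0.787 by library set and 0.160 by pair, with an unadjusted p of 0.0112 by pair). At least 5 higher pairs were seen for 17.9% of all genes tested. Krt20 had the most negative value among 8 further type I genes (-0.30). Krt75, a relative of Krt6a, did not exceed 1.93 normalized counts.

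Genes that anchor or link keratin filaments numbered 15, of which 6 were higher and 9 lower (median log2 fold change -0.05), and 0 were called in either limma model (1 by library set and 4 by pair at an unadjusted p under 0.05). Under that p were 7.85% and 17.6% of all genes tested, in the same order, and 51.5% of all genes tested were lower. Dsp, which ties keratin to desmosomes, was the most abundant, with a log2 fold change of -0.03. Ppl, coding for the linker periplakin, had the highest value (0.17; adjusted p = 0.604, and 0.112 in the paired model), and Itgb4 had the lowest (-0.12; adjusted p = 0.739, and 0.191 in the paired model), lower in 6 of 6 pairs. At least 5 lower pairs were seen for 18.4% of all genes tested.

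Of 20 transcription factors known to act on keratin genes, 16 were higher and 4 lower after ablation, with a median log2 fold change of 0.07. Over all genes tested, 51.5% were lower. In the library set model 0 were called (3 at an unadjusted p under 0.05), and in the paired model 2 were called, both higher, where 1.09% of all genes tested were called (5 at an unadjusted p under 0.05, where 17.6% of all genes were). Trp63, which encodes the basal cell factor p63, was higher in 6 of 6 pairs by 0.39 on the log2 scale (adjusted p = 0.187 by library set and 0.00825 by pair). Jun, an AP-1 subunit gene, was also higher in 6 of 6 pairs, by 0.31 (adjusted p = 0.629 by library set and 0.0209 by pair). At least 5 higher pairs were seen for 17.9% of all genes tested. A paired model without trend and robust estimation called 0 genes in all. Klf4 was the most abundant factor (0.12), Fosl1 had the highest value (0.57; adjusted p = 0.768) and Tfap2c the lowest (-0.12). The basal keratins Krt5 and Krt14 thus had values near 0 in the same dishes in which Trp63 passed the paired test.

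Of 15 non-keratin basal cell genes, 6 were higher and 9 lower, with a median of -0.05, and Trp63 was the only one called, in the paired model. In the library set model 0 were called (2 at an unadjusted p under 0.05, and 6 in the paired model). The shares of all genes tested under that p were 7.85% and 17.6% in these models, and 51.5% of all genes tested were lower. Aqp3, a water channel gene of basal cells, was the most abundant (-0.05), and Pdpn had the lowest value (-0.18; adjusted p = 0.629, and 0.109 in the paired model). The summed level of 5 basal markers (Trp63, Itga6, Ngfr, Pdpn and Dlk2) was 26155 to 30395 normalized counts in unlasered and 29288 to 33828 in lasered dishes, and was higher in 6 of 6 pairs. Trp63 and Itga6, the most abundant of the 5, were each higher in 6 of 6 pairs, while Ngfr (-0.11), Pdpn (-0.18) and Dlk2 (-0.14) had negative log2 fold changes and were higher in 2, 1 and 1 pairs. At least 5 higher pairs were seen for 17.9% of all genes tested. The part of these markers in the keratin values was not tested. Sox2, used here as an airway epithelium marker and not in the list of 15, was higher in 0 of 6 pairs. Its log2 fold change in limma was -0.17 (adjusted p = 0.642 by library set and 0.0488 by pair). The paired model called no gene without trend and robust estimation.

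Among 13 tested genes of the cornified envelope and of alarmins, 8 were higher and 5 lower (median 0.07), and 0 were called in either model (0 and 5 at an unadjusted p under 0.05). Sfn was the most abundant (-0.10), S100a9 had the highest value (0.48 at 22.3 and 14.5 normalized counts) and Sprr3 the lowest (-0.23; adjusted p = 0.103 in the paired model). Of 14 tested genes of migrating cells at a wound edge, 10 were higher and 4 lower (median 0.04), with 0 called in either model (0 and 2 at an unadjusted p under 0.05). For both lists, the shares of all genes tested under that p were 7.85% by library set and 17.6% by pair. Of all genes tested, 51.5% were lower. Itgb1 was the most abundant (0.01), Areg, an EGF receptor ligand gene, had the highest value (0.51; adjusted p = 0.754) and Tnc, coding for the matrix protein tenascin-C, the lowest (-0.20; adjusted p = 0.816).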

How the data were processed

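RNA of 12 dishes (150 ng each) was sequenced as poly(A)-selected, stranded 75-base paired-end libraries. The authors used bcl2fastq, nf-core/rnaseq and GENCODE GRCm38.p6, and deposited the signal values used here: counts divided by DESeq2 size factors. The aligner and counter are not given in the sources used here. The deposited table also holds the authors' base mean, fold change, standard error, Wald statistic and p-values, which were not used.

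Values were tested as log2(normalized count + 1) with limma 3.58.1 (R 4.3.3; trend and robust variance; Benjamini-Hochberg over 13792 genes; threshold 0.05), with library set or, as an alternative, pair number as block. Dishes of a pair share passage, culture day and date in the labels, and their deviations correlated (r 0.205 to 0.618). The ablation dish of pair 4 (r 0.205) was more like the control dish of another pair than its own. The library set was inferred from library numbers. Whole reads recovered from 9 libraries (100% of values within 0.1 reads) were used in edgeR 4.0.16, which called 0 genes over these 9. The dishes ablation 3, ablation 4 and control 4 met the same limit but were left out of this run. The fits were tested on simulated data first. The changes planted there were larger than the differences reported here for the members, so recovery of changes of this size was not tested. Sequences came from GENCODE M21, whose gene IDs and positions equal those deposited for all 6 genes, and were compared with Biopython 1.88. No protein sequence was used here.

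The 6 genes, the gene lists and the tests were chosen with earlier results of these data known. Genes were named by a fixed rule: the members, near-identical paralogs, the most abundant gene, the highest and lowest fold change and any call in each list, and the 3 genes most like each member. Cell type markers were named beside these.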

Additional observations from a re-analysis of the deposited data

Results flagged for a closer look

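A sample was set apart where its gap to the nearest other sample, as a share of its group's range, exceeded Dixon's 95% critical value for 6 samples. In all, 32 groups of values were examined, and chance gives about 1 such sample in 20 groups. Krt15 in the ablation dish of pair 1 (15198 normalized counts) was the highest of its group, and the ratio of Krt15 to Krt14 in the same dish (0.0650) was the highest of the ablation group. For Krt16, the control dish of pair 5 (10387 normalized counts) was the highest of the controls. The log2 difference of Krt16 between the dishes of pair 1 (-0.69) was the lowest of the 6 pairs.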

How the results depend on the processing

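No member passed the threshold under any alternative run, and the adjusted p of Krt17 and Krt6a for ablation against control ranged from 0.0802 and 0.0928 to 1.00. Of the alternative values, 409 kept their direction and their side of the threshold, or stayed within the limit set for counts. The model with library set called 0 genes, the paired model with the replicate block 150, 168 with quantile normalization, 151 with TMM scaling, 16 in library set 1 alone, 109 in set 2 alone and 3 with edgeR on 4 pairs. Without trend and robust variance estimation, the paired model called 0 genes, so its calls depend on this setting. With the block and without pair 1, 3, 4, 5, 6 or 7 the count was 176, 90, 8, 77, 106 or 140. Without a filter on low values, 3 genes were called. The block changed no call of a member. The paired alternatives with TMM, within library sets and with edgeR, and the additional fits for response by day, were chosen after seeing the data.

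Several values changed sign, none of them past the threshold. For ablation against control these were Krt16 in library set 1 (-0.144, with and without the block), in edgeR with the block (-0.0567), and without pair 3 (-0.0137) or 6 (-0.0205) in a range up to 0.183 over all pairs left out, and Krt5 in set 2 (-0.0273, with and without the block) and without pair 1 (-0.00535, range up to 0.0432). For late against early day these were Krt5 (-0.00885 in ablation dishes, -0.0152 without library set, -0.0182 to 0.174 without each dish), Krt16 (0.00876 in ablation dishes, against -0.347 in the controls), Krt17 (-0.0471 without library set, -0.0296 to 0.143 without each dish), Krt6a (-0.0226 to 0.108 without each dish) and Krt15 (-0.862 to 0.192 without each dish, against -0.335 with all). The response by day changed sign without each pair in turn for Krt14 (-0.0633 to 0.00481) and Krt15 (-0.497 to 0.0725). The day comparison called 2 genes over all 12 libraries and 44 without a filter, and the response by library set called 0 with plain variance estimation. The cause was not tested. Another scaling moved the median log2 difference of all genes from -0.00365 to -0.00318 (quantile) or -0.00194 (TMM).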
